A study of Mus musculus with 13 samples.

Results

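Epidermis of mice labelled P0, an age the methods also write as E18.5/P0, was compared between wild type (WT) C57Bl/6J animals and Grhl3-/- (KO) littermates, which lack both functional copies of the gene for the transcription factor GRHL3 in every tissue. Transcripts of single cells were counted with 10x Genomics Chromium 3′ libraries, in which each captured transcript carries a unique molecular identifier (UMI). There were 2 libraries per genotype, each from a different animal according to the methods. All 4 were made from skin of the anterior back, since every KO animal has spina bifida further back, and in all of them the epidermis had been separated by overnight Dispase digestion and dissociated with Accutase before dead cells were removed. An older P0 library of a WT mouse, made with the first version of the Chromium chemistry, was left out, and whole back skin at E16.5 (2 WT and 2 KO libraries) served for a comparison of ages. Kept were cells in which 900 to 7700 genes were detected and no more than 10% of UMIs were mitochondrial, 29794 of the 81449 cells kept over the 12 WT and KO libraries of the series. WT replicates 1 and 2 gave 6765 and 6589 cells with 67018032 and 77576092 UMIs. KO replicates 1 and 2 gave 9157 and 7283 cells with 105580896 and 90268591 UMIs. The UMIs of each gene were summed over all kept cells of a library. They were also summed over hair follicle cells, defined as cells with at least 1 UMI of 2 or more of Sox9, Lhx2, Lgr5, Shh, Krt28 and Krt27. The remaining cells, called other cells, were summed as well. The split was meant to tell changes shared with follicles from those of the interfollicular epidermis (IFE). Other cells are not IFE alone, since they include cells with markers of melanocytes, leukocytes and other types. The gate took 16577 cells and left 13217. The 6 genes of the gate are therefore no result between the 2 sets of cells.

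The IFE is a stratified epithelium. Its basal layer, attached to the basement membrane by hemidesmosomes, holds the dividing cells and makes keratins 5 and 14. Cells that move up into the spinous layer switch to keratins 1 and 10 and strengthen their desmosomes, and in the granular layer they make filaggrin, loricrin and other envelope proteins, secrete ceramides and cholesterol, and finally cross-link everything into a cornified envelope with transglutaminases. Kallikreins and their inhibitors control how the finished layer is shed. GRHL3 belongs to the Grainyhead family of transcription factors, which is needed for closure of the neural tube and for the epidermal barrier. The hair follicle is continuous with the IFE but follows its own course, with an outer root sheath, an inner root sheath and a matrix from which the hair shaft grows.

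The libraries differed in depth and make-up. The median cell had 7448 and 9245 UMIs in WT and 9300.0 and 9976 in KO, and a median mitochondrial share of 3.77 and 3.61% in WT against 2.93 and 2.43% in KO. A cell with markers of another type had at least 2 UMIs of 2 genes of a list. Such cells made up 26.7 and 25.7% in WT and 18.9 and 24.9% in KO. Cells with melanocyte markers made up 19.28 and 16.45% in WT and 10.78 and 15.47% in KO. For both shares each KO library lay below each WT library. Cells with leukocyte markers overlapped between the genotypes, with 7.66 and 9.46% in WT and 7.72 and 9.45% in KO. Most cells with markers of another type lay outside the gate. Cells without such markers made up 1741 of 3009 and 1714 of 3046 other cells in WT. In KO they made up 2897 of 4286 and 1582 of 2876. The keratinocyte genes Krt5, Krt14, Krt1 and Krt10 were abundant in every library. The hair follicle gate took 55.5 and 53.8% of cells in WT and 53.2 and 60.5% in KO, with overlap between the genotypes. It was not made up alike, however. Sox9, an outer root sheath factor, was seen in 70.0 and 63.3% of gated WT cells and in 52.1 and 50.3% of gated KO cells. Krt28, an inner root sheath keratin, was seen in 27.1 and 25.6% in WT and 40.3 and 44.4% in KO. Krt27 went the same way (15.6 and 16.1%, 25.2 and 28.6%). Lgr5 (32.6 and 34.7%, 33.0 and 29.5%) and Shh (38.4 and 47.2%, 40.3 and 48.1%) overlapped between the genotypes. Lhx2 was seen in 93.3 and 94.9% in WT and 91.6 and 92.4% in KO. As these genes chose the cells, their shares only describe the gate. Gated cells were deeper than other cells in all libraries, with a median of 8429.5 to 12184 against 6402 to 8092 UMIs, so that detection of a gate gene follows depth as well as cell type. The gate also took 26.3 to 38.3% of cells with melanocyte markers and 10.5 to 14.4% of those with leukocyte markers. Between 53 and 96 barcodes were shared by any 2 of the 4 libraries, at most 1.46% of the smaller one. The methods describe 1 male and 1 female per genotype, but all 4 libraries held the Y-linked Ddx3y at 44.8 to 52.5 counts per 1000000 UMIs (CPM) and Xist at 0.00947 to 0.119 CPM.

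Grhl3 itself (chr4:135541888-135573630 of GRCm38) served as a check of the labels. In other cells it stood at 10.3 and 11.8 CPM in WT and 2.08 and 2.94 in KO (log2 fold change -2.15 ± 0.25, adjusted p = 0.00686), where ± is the standard error of the fit, n = 2 libraries per genotype and the adjusted p is from the quasi-likelihood test of edgeR with Benjamini-Hochberg adjustment, as in all comparisons below. In hair follicle cells it was 4.89 and 5.90 CPM in WT and 2.62 and 2.76 in KO (log2 fold change -0.87 ± 0.19, adjusted p = 0.0183). Both KO libraries lay below both WT libraries in both sets of cells, and some Grhl3 transcript was still counted in KO. Whether the 3′ tag lies outside the deleted part of the gene was not tested. Of 11 Grainyhead genes and reported GRHL3 targets tested over all kept cells, 5 fell and 2 rose, with a median log2 fold change of -0.48 against -0.01 over all genes. The 11 include Grhl3 itself, the deleted gene, whose own fall is no result of the list. The median was -0.24 without KO replicate 1 and -0.77 without KO replicate 2. Grhl1, the nearest relative of Grhl3 in differentiating keratinocytes, had 55.7 and 61.4 CPM in WT and 24.2 and 29.3 in KO and fell (log2 fold change -1.03 ± 0.13, adjusted p = 0.00569), while Grhl2 had 32.7 and 30.1 CPM in WT and 32.1 and 32.8 in KO (adjusted p = 0.338). Tgm1, the transglutaminase that cross-links the envelope, fell by 1.59 on the log2 scale over all kept cells and the desmosomal cadherin Dsg1a by 1.85. Lmo4, a partner of GRHL3 in the epidermis, fell (log2 fold change -0.90 ± 0.26, adjusted p = 0.0476). Arhgef19, a guanine nucleotide exchange factor known as a GRHL3 target, rose from 19.2 and 17.4 to 22.7 and 25.2 CPM (log2 fold change 0.49 ± 0.13, adjusted p = 0.0338), as did the actin bundling gene Fscn1 (log2 fold change 0.95 ± 0.12, adjusted p = 0.0053). Members other than Grhl3 thus moved both ways. In hair follicle cells the median of the list was -0.57, with -0.33 without KO replicate 1 and -0.68 without KO replicate 2. The list gave 5 lower and 1 higher in hair follicle cells and 4 lower and 2 higher in other cells, and without WT replicate 1 none rose in other cells.

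Grainyhead proteins bind DNA at a short palindrome-like motif. Promoter windows of RefSeq transcripts (GRCm38.p6, 250 bases before to 50 after the start) were searched on both strands for AACCGGTT and AACCTGTT, the second of which reads AACAGGTT on the other strand. The motif was in 364 of 32851 windows, or 1.108%. By gene, it was in the windows of 1.135% of tested genes, of 1.333% of those that rose (20 of 1500 with a window) and of 1.14% of those that fell (16 of 1403), so the shares lay close to each other. Among 233 list members that changed over all kept cells, 170 had a window and 3 held the motif. Their bases before the start are shown because each belongs to a gene described below. They are Rptn, an envelope gene that fell (chr3:93393449-93393698, plus strand), Cgn, a tight junction gene that fell (chr3:94786483-94786732, minus strand), and Rrm2, a gene of DNA synthesis that rose (chr12:24708004-24708253, plus strand). Capitals mark the motif, which begins 197, 29 and 176 bases before the start, in this order. A match of letters is a description, and binding was not measured in these libraries.
Rptn: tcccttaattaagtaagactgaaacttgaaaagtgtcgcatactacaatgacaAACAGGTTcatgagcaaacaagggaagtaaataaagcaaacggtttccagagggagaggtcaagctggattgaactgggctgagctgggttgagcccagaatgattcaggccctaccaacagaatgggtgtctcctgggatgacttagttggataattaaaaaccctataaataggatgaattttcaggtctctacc
Cgn: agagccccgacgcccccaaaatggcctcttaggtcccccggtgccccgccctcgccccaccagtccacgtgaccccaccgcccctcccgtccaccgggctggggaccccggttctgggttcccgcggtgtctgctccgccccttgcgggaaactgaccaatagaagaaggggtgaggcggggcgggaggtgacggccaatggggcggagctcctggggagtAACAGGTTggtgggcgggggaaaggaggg
Rrm2: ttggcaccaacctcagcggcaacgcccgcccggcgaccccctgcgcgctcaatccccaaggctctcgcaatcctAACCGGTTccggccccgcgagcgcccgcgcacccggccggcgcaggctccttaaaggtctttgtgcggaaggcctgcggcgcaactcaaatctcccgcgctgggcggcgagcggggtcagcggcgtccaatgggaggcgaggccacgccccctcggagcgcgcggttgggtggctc

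Over all kept cells 3899 of 15635 tested genes changed, 2000 higher in KO (12.8%) and 1899 lower (12.1%). In hair follicle cells 2162 of 14593 tested genes were higher (14.8%) and 2015 lower (13.8%). In other cells 1035 of 14342 were higher (7.22%) and 1209 lower (8.43%). More than 2-fold changes were mostly decreases in each of the 3 sums, 953 lower against 457 higher over all kept cells, 836 against 430 in hair follicle cells and 784 against 418 in other cells. Genes were read by 24 lists of known function or cell type, and a low gene can enter the test through its level in 1 genotype alone, so the counts of members are descriptions to be held against these shares. In sums of this kind fewer cells of a type and less RNA per cell cannot be told apart.

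**Figure D1:**
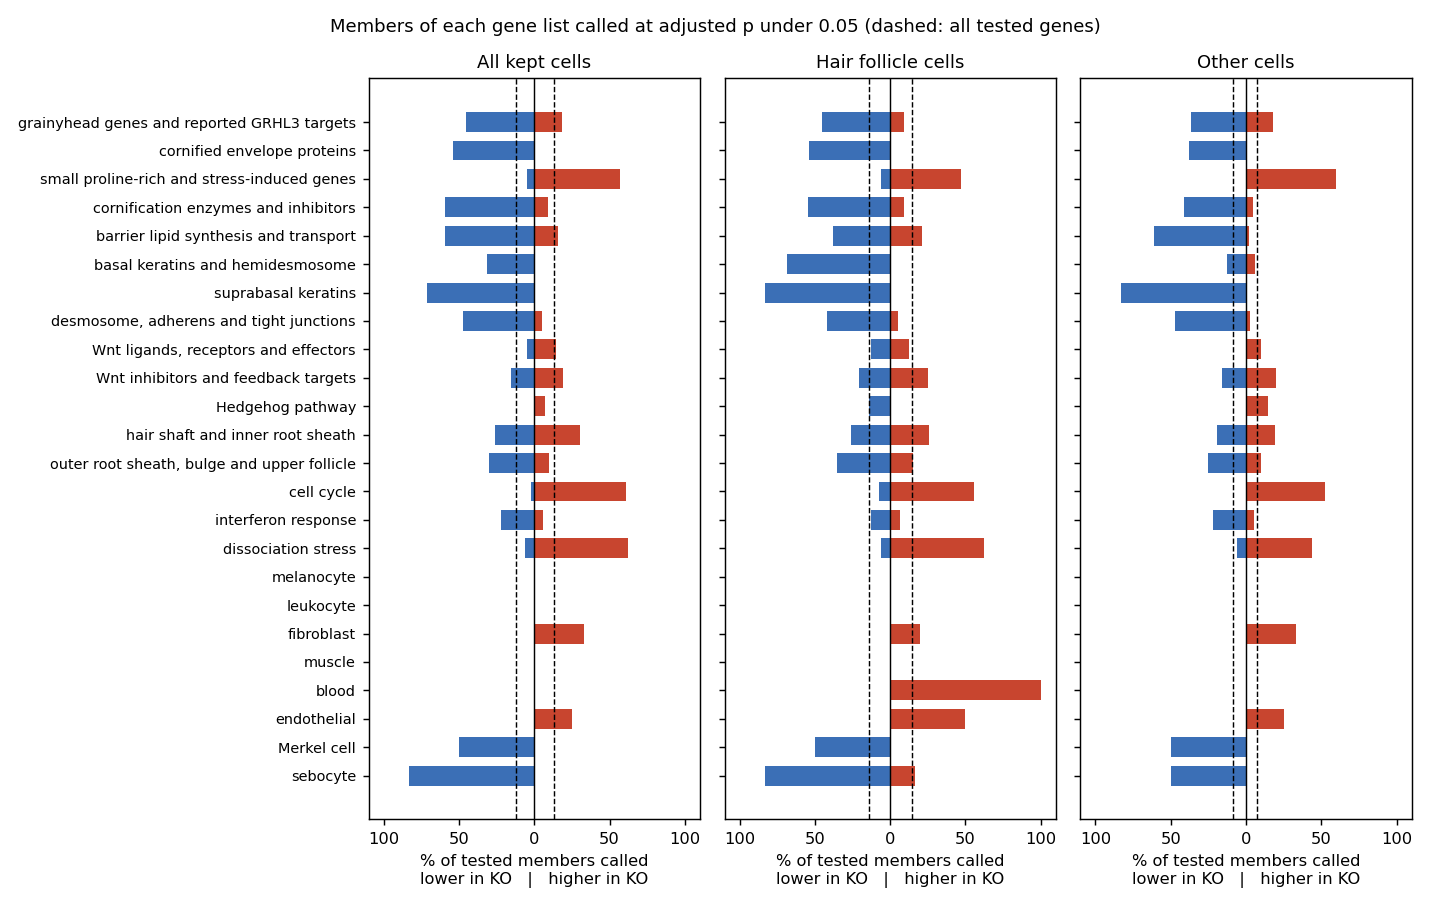
Members of the 24 gene lists that were called lower (blue, to the left) or higher (red, to the right) in KO, in percent of the tested members, over all kept cells, hair follicle cells and other cells. Dashed lines give the share over all tested genes, between 7.22 and 14.8%. Cornified envelope, suprabasal keratin and barrier lipid lists lie mostly to the left, and the small proline-rich and cell cycle lists mostly to the right.

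The cornified envelope list had one of the lowest medians over all kept cells. Of 34 envelope genes listed 26 could be tested there, and 14 fell and none rose, with a median log2 fold change of -4.26, which was -1.52 without WT replicate 2. At an unadjusted p under 0.05 none rose and 25 fell, and DESeq2 called none higher and 16 lower. In other cells 8 of 21 fell (median -4.35, but -1.98 without WT replicate 2, -6.23 without WT replicate 1 and -2.83 without cells of another type). Hornerin (Hrnr, a filaggrin-like repeat protein) was 85.1 and 81.8 CPM in WT and 0.380 and 1.14 in KO in other cells (log2 fold change -6.88 ± 0.39, adjusted p = 0.00214). Filaggrin (Flg, chr3:93273523-93293686), which bundles keratin and is broken down to moisturizing amino acids, was 924 and 767 CPM in WT and 4.91 and 23.4 in KO there (log2 fold change -5.93 ± 0.71, adjusted p = 0.00732), 61.1-fold lower. Loricrin (Lor, chr3:92080271-92083142), the major envelope protein, was 212 and 437 CPM in WT and 5.59 and 26.9 in KO (log2 fold change -4.35 ± 0.73, adjusted p = 0.0154), 20.4-fold lower. For all 3 genes the KO values lay far below the WT values with no overlap, although the WT replicates of Lor also differed from each other, and without WT replicate 2 its log2 fold change of -3.74 did not pass the test. Suprabasin and keratinocyte differentiation-associated protein (Sbsn and Krtdap), 2 secreted products of spinous and granular cells, fell less. Sbsn went from 508 and 609 to 64.4 and 95.2 CPM in other cells (log2 fold change -2.81 ± 0.21, adjusted p = 0.00263) and Krtdap from 2675 and 2835 to 1087 and 897 (log2 fold change -1.47 ± 0.15, adjusted p = 0.00509). Corneodesmosin (Cdsn), the adhesive of the cornified layer, went from 5.97 and 13.1 to 0.304 and 0.667 (log2 fold change -4.35 ± 0.53, adjusted p = 0.00753). With each cell thinned to 3000 UMIs, Lor was seen in 5.42 and 6.76% of WT and 1.26 and 1.70% of KO other cells. At 5 or more UMIs the shares were 0.864 and 0.722% in WT and 0.0233 and 0.278% in KO. Cells with Lor held a mean of 5.63 and 6.92 of its UMIs in WT and 1.11 and 6.98 in KO. Fewer cells thus carried Lor in both KO libraries, and its level per carrying cell was lower in KO replicate 1 alone. The part of free RNA in these shares was not tested.

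Some envelope genes varied between the WT libraries. The late cornified envelope gene Lce1a1 had 0.522 and 17.9 CPM in WT and 0.208 and 0.0665 in KO over all kept cells, so that only WT replicate 2 carried it in number. Repetin (Rptn), whose promoter window is shown above, had 6.60 and 2.23 CPM in WT and 0.104 and 0.886 in KO (log2 fold change -3.08 ± 0.89, adjusted p = 0.0484). Involucrin (Ivl) was 9.13 and 8.44 CPM in WT and 0.294 and 2.81 in KO and did not pass the test (adjusted p = 0.0711), while the desmosome-bound scaffold envoplakin (Evpl) fell (log2 fold change -1.76 ± 0.17, adjusted p = 0.00313) and its partner periplakin (Ppl) had 105 and 115 CPM in WT and 72.9 and 35.8 in KO (adjusted p = 0.0715). Without WT replicate 2 there were 9 envelope genes lower over all kept cells, and without WT replicate 1 there were 23. In other cells these counts were 7 and 21.

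**Figure D2:**
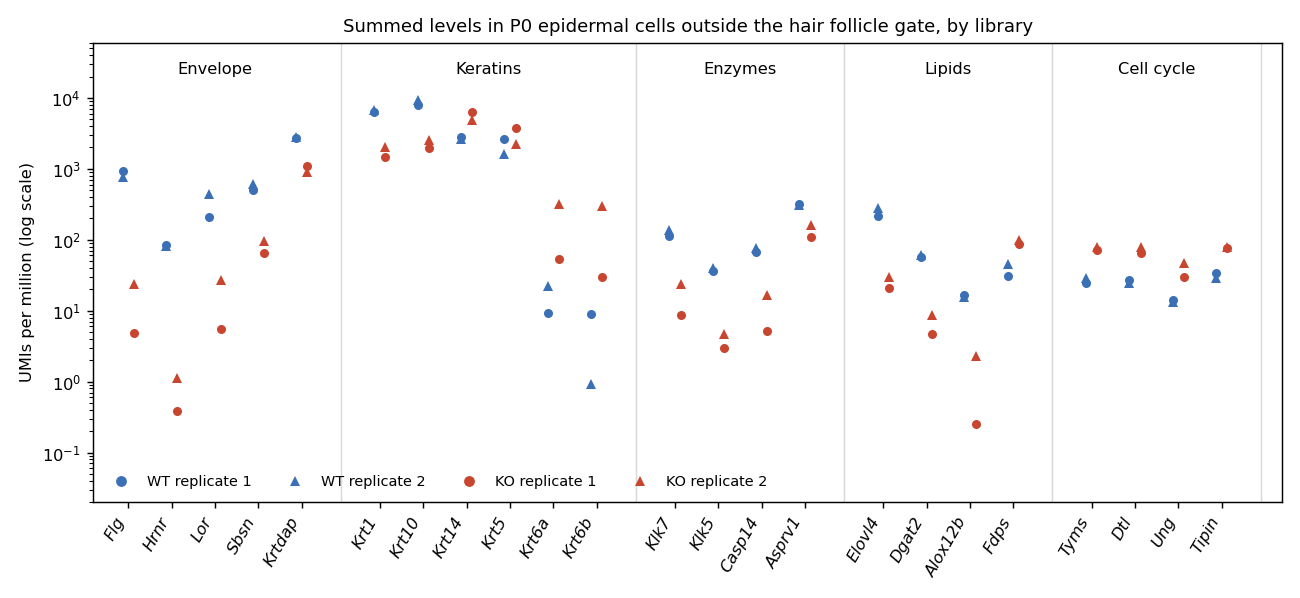
Level of genes in other cells of each library in CPM (log scale), for envelope, keratin, enzyme, lipid and cell cycle genes. Blue marks WT and red KO, circles replicate 1 and triangles replicate 2. The 2 red points of Flg lie at 4.91 and 23.4 and those of Lor at 5.59 and 26.9, while Krt6a and Krt6b have both red points above the blue ones.

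Enzymes of cornification and their inhibitors fell in 13 of 22 cases over all kept cells and rose in 2 (median -0.85), and fell in 9 of 22 in other cells. The kallikreins Klk5 and Klk7, proteases that cut corneodesmosomes, fell most in other cells. Klk7 was 114 and 139 CPM in WT and 8.63 and 23.5 in KO in other cells (log2 fold change -2.999 ± 0.42, adjusted p = 0.0096) and Klk5 was 35.9 and 40.4 CPM in WT and 3.01 and 4.75 in KO (log2 fold change -3.32 ± 0.24, adjusted p = 0.0025). Their inhibitor Spink5 fell as well, from 89.2 and 91.3 to 7.67 and 33.1 CPM (log2 fold change -2.17 ± 0.57, adjusted p = 0.0481), so protease and inhibitor transcripts decreased together, but the call of Spink5 was lost with DESeq2 (-2.15), with a gate of 3 genes (-2.02) or at 2 UMIs (-1.95) and without either WT library. Casp14, the caspase that helps degrade filaggrin, was 66.2 and 75.7 CPM in WT and 5.09 and 16.4 in KO (log2 fold change -2.75 ± 0.47, adjusted p = 0.0162) and Asprv1, the protease that trims profilaggrin, was 316 and 313 CPM in WT and 109 and 159 in KO (log2 fold change -1.23 ± 0.18, adjusted p = 0.0113). The genotypes did not overlap for any of these genes. Klk10 rose (log2 fold change 1.14 ± 0.21, adjusted p = 0.0127 over all kept cells), and so did the membrane protease St14 (log2 fold change 0.63 ± 0.13, adjusted p = 0.0176). The lysosomal proteases Ctsd and Ctsl had 193 and 218 CPM in WT and 142 and 165 in KO and 388 and 404 CPM in WT and 211 and 224 in KO, and only Ctsl fell (adjusted p = 0.00592, against 0.0973 for Ctsd). Without WT replicate 1 or 2 the count of lower members in other cells was 4 or 5.

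Most changed genes of barrier lipid synthesis and transport fell. Of 44 tested over all kept cells 26 fell and 7 rose (median -0.75), and in other cells 27 fell and 1 rose (median -1.16). The decreases included the genes for ceramides with very long acyl chains and for their export. Elovl4, which makes the very long chain fatty acids of skin ceramides, was 214 and 276 CPM in WT and 20.6 and 29.4 in KO in other cells (log2 fold change -3.30 ± 0.22, adjusted p = 0.00214). Alox12b and Aloxe3, the lipoxygenases that oxidize these ceramides, fell too, Alox12b from 16.6 and 15.7 to 0.253 and 2.28 CPM (log2 fold change -3.78 ± 0.73, adjusted p = 0.0219) and Aloxe3 with a log2 fold change of -3.48 ± 0.25. Abca12, the lipid transporter of lamellar granules, went from 17.9 and 20.8 to 2.13 and 2.51 CPM (log2 fold change -3.06 ± 0.21, adjusted p = 0.00214), Pnpla1 (-3.46 ± 0.37 on the log2 scale) adds the last acyl group of acylceramide, and Dgat2, a triglyceride enzyme, fell from 56.4 and 59.99 to 4.76 and 8.63 CPM (log2 fold change -3.14 ± 0.27, adjusted p = 0.00321). In each of these the KO libraries lay below both WT libraries.

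Members that rose over all kept cells included genes of sterol and fatty acid supply, chosen after their values had been seen. Fdps, the farnesyl diphosphate synthase of the cholesterol pathway, rose from 35.6 and 48.6 to 111 and 126 CPM over all kept cells (log2 fold change 1.60 ± 0.16, adjusted p = 0.00354), and Sqle, the squalene epoxidase, changed by 1.02 ± 0.16 on the log2 scale. Hmgcs1, Lss, Acaca and the fatty acid binding gene Fabp5 rose as well. Outside the list, Idi1, which acts just before Fdps in the same pathway, was 20.1 and 27.8 CPM in WT and 63.5 and 79.4 in KO in hair follicle cells (log2 fold change 1.71 ± 0.18, adjusted p = 0.00313), and the desaturase Scd2 was 30.3 and 44.5 CPM in WT and 108 and 107 in KO over all kept cells (log2 fold change 1.63 ± 0.18, adjusted p = 0.0044). In hair follicle cells 9 members rose and 16 fell, whereas in other cells Fdps was the only one that rose. Without KO replicate 2 there were 2 higher and 17 lower over all kept cells, and without WT replicate 2 there were 16 lower in other cells.

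The keratins of the upper layers fell. Of 7 suprabasal keratins tested over all kept cells 5 fell (median -2.01) and none rose. Krt10 (chr11:99385254-99389364), the keratin 1 partner, was 7929 and 9460.5 CPM in WT and 1956 and 2538 in KO in other cells (log2 fold change -1.95 ± 0.16, adjusted p = 0.00293), 3.88-fold lower, and Krt1 was 6392 and 6703 CPM in WT and 1459 and 2036 in KO (log2 fold change -1.91 ± 0.17, adjusted p = 0.00328). Krt77 and Krt80 fell by 1.94 and 2.28 on the log2 scale. Krt78, an upper layer keratin, was 9.67 and 22.2 CPM in WT and 0.123 and 0.188 in KO over all kept cells (log2 fold change -6.57 ± 0.52, adjusted p = 0.00231). Genes of the basal layer and its hemidesmosomes fell in 5 of 16 cases over all kept cells and rose in none (median -0.30), and in 11 of 16 in hair follicle cells (median -0.59). Over all kept cells 2 fell without KO replicate 2 or WT replicate 1, with a median of -0.11 and -0.16, and 7 without KO replicate 1 (median -0.72), and 5 fell in hair follicle cells without KO replicate 2. The median over all kept cells was -0.088 without the deepest 5% of cells. Krt14 (chr11:100203162-100207548) was 2848 and 2654 CPM in WT and 6416 and 4842 in KO in other cells and rose there (log2 fold change 1.04 ± 0.17, adjusted p = 0.0141), while its partner Krt5 had 2640.3 and 1624 CPM in WT and 3811 and 2264 in KO (log2 fold change 0.52 ± 0.31, adjusted p = 0.289) and did not pass the test. Dystonin (Dst), which links keratin to the hemidesmosome, went from 441 and 406 to 225 and 159.8 CPM in other cells (log2 fold change -1.13 ± 0.20, adjusted p = 0.0169), and Trp63, the p63 gene that maintains basal cells, from 228 and 212 to 151 and 107 (log2 fold change -0.76 ± 0.19, adjusted p = 0.0444). Over all kept cells Lamb3, Itga6 and Plec fell with them. With either WT library left out none of the 16 basal genes changed in other cells.

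Junction genes fell in 18 of 38 cases over all kept cells and rose in 2 (median -0.44), and in other cells 18 fell and 1 rose. Among them were desmosomal genes of the upper layers. Dsg1a was 116 and 146 CPM in WT and 31.4 and 26.01 in KO in other cells (log2 fold change -2.18 ± 0.18, adjusted p = 0.00298), its neighbour Dsg1b changed by -2.18 ± 0.27 and desmocollin 1 (Dsc1) by -2.54 ± 0.47 on the log2 scale. Desmoplakin (Dsp), which anchors keratin to all desmosomes, went from 669 and 619.9 to 283 and 203 CPM (log2 fold change -1.40 ± 0.19, adjusted p = 0.00948). Dsc2, the most widely expressed desmocollin, rose from 2.18 and 1.96 to 5.06 and 7.22 CPM (log2 fold change 1.56 ± 0.28, adjusted p = 0.0183). Dsg1a and Dsg1b are near-identical copies, and the split of UMIs between them is uncertain. Among tight junction genes the claudins moved apart. Cldn23 fell from 1.15 and 3.004 to 0.253 and 0.235 CPM in other cells (log2 fold change -3.06 ± 0.58, adjusted p = 0.0208) and Cldn1, the main claudin of the epidermal barrier, from 88.1 and 90.9 to 48.4 and 38.7 (log2 fold change -1.04 ± 0.16, adjusted p = 0.0128). Cldn7 rose over all kept cells (log2 fold change 1.42 ± 0.30, adjusted p = 0.019). The scaffold cingulin (Cgn), whose window is shown above, was 8.04 and 6.36 CPM in WT and 1.37 and 1.77 in KO (log2 fold change -2.21 ± 0.28, adjusted p = 0.00819). The gap junction gene Gjb5 fell, with a log2 fold change of -3.05 ± 0.19. The count of lower members over all kept cells was 10 without KO replicate 1 and 8 without KO replicate 2, and in other cells it was 11 and 7 without WT replicates 1 and 2.

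Small proline-rich and stress-induced genes rose against the direction of the other envelope genes. Of 21 tested over all kept cells 12 rose and 1 fell (median 3.11), and in other cells 12 of 20 rose (median 3.70). Krt6b and Krt6a, keratins that wounded or hyperproliferative epidermis makes, were 8.95 and 0.917 CPM in WT and 29.7 and 295 in KO for Krt6b (log2 fold change 5.04 ± 1.30, adjusted p = 0.0461) and 9.18 and 22.5 CPM in WT and 53.3 and 319 in KO for Krt6a (log2 fold change 3.53 ± 0.83, adjusted p = 0.0358) in other cells. Sprr2a3 (chr3:92285417-92291405) and Sprr2d (chr3:92339140-92340873), small cross-linked envelope proteins, were 9.64 and 1.30 CPM in WT and 78.7 and 144 in KO for Sprr2a3 (log2 fold change 4.36 ± 0.80, adjusted p = 0.0193) and 0.727 and 1.26 CPM in WT and 8.96 and 74.8 in KO for Sprr2d (log2 fold change 5.34 ± 1.03, adjusted p = 0.0216). Lor and Flg, which fell, lie in the same cluster of chromosome 3 as these genes, which rose. The antimicrobial S100a8 and S100a9 were 2.14 and 1.80 CPM in WT and 14.9 and 65.03 in KO for S100a8 (log2 fold change 4.32 ± 0.69, adjusted p = 0.013) and 1.34 and 0.253 CPM in WT and 17.8 and 55.2 in KO for S100a9 (log2 fold change 5.55 ± 0.78, adjusted p = 0.0096). In all 6 genes each KO library lay above each WT library, and KO replicate 2 lay above KO replicate 1. Slpi, a secreted protease inhibitor, and the cytokine gene Il24 rose as well. Sprr1a fell over all kept cells, from 21.6 and 26.9 to 3.07 and 9.07 CPM (log2 fold change -1.90 ± 0.45, adjusted p = 0.027), and Krt16, the usual partner of keratin 6, had 605 and 194 CPM in WT and 37.5 and 241 in KO in other cells (log2 fold change -1.54 ± 0.83, adjusted p = 0.239), with no call. Krt17 had 995 and 1107 CPM in WT and 1449.7 and 1438 in KO (adjusted p = 0.0517). Copies within the Sprr2 and Krt6 families are so alike that reads could be split between them, so single members are uncertain. Over all kept cells 4 members rose without KO replicate 2, and in other cells 4 and 3 rose without WT replicates 1 and 2. Without KO replicate 2 the log2 fold change of Krt6b in other cells was 2.64 and no longer passed the test, and that of Krt6a was 1.79 and did. Without the deepest 5% of cells they were 3.74 and 2.40, and neither passed the test. In hair follicle cells 8 rose, and 3 did once the deepest 5% of cells were left out.

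Cell cycle genes rose as a group. Of 97 tested, 59 rose and 2 fell over all kept cells (median 0.52), 54 rose and 7 fell in hair follicle cells and 51 rose and none fell in other cells (median 0.64), where 7.22% of all tested genes rose. In other cells none fell at an unadjusted p under 0.05 or by DESeq2 either. Genes of DNA synthesis were among them. Tyms, which makes thymidylate, was 24.2 and 29.2 CPM in WT and 72.1 and 79.4 in KO in other cells (log2 fold change 1.50 ± 0.15, adjusted p = 0.00506) and Rrm2, the ribonucleotide reductase subunit whose window is shown above, was 20.7 and 17.9 CPM in WT and 45.7 and 64.5 in KO (log2 fold change 1.51 ± 0.19, adjusted p = 0.00833). Dtl (1.50 ± 0.15), Ung (1.47 ± 0.22) and Tipin (1.30 ± 0.14), which serve DNA replication and repair, moved by like amounts on the log2 scale. The helicase subunit Mcm2 was 16.6 and 15.8 CPM in WT and 34.3 and 52.3 in KO (log2 fold change 1.41 ± 0.21, adjusted p = 0.0113). Mki67 and Top2a, genes of dividing cells, had smaller fold changes. Mki67 was 63.2 and 52.6 CPM in WT and 82.8 and 86.8 in KO (log2 fold change 0.55 ± 0.15, adjusted p = 0.049), and Top2a was 205 and 121 CPM in WT and 189 and 202 in KO (log2 fold change 0.26 ± 0.24, adjusted p = 0.493) and did not pass the test. The histone gene Hist3h2ba and Pclaf (as 2810417H13Rik), a partner of PCNA, rose with them (log2 fold change 1.88 ± 0.17, adjusted p = 0.00397 and log2 fold change 1.89 ± 0.13, adjusted p = 0.00214). Without WT replicate 2 the list had 13 higher in other cells and without WT replicate 1 it had 23, and over all kept cells it had 27 without KO replicate 2, and 33 higher and none lower in hair follicle cells. Each count stayed above that of lower genes.

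The Wnt pathway, which holds follicle and basal stem cells in an active state, was of interest because the study asked whether GRHL3 restrains it. Of 41 ligands, receptors and effectors tested over all kept cells 6 rose and 2 fell (median 0.18), but 3 rose and 4 fell without WT replicate 2, and 3 rose and 2 fell without KO replicate 1 (median 0.04). The share that rose over all kept cells, 14.6%, was near the 12.8% of all tested genes, and 4.88% fell against 12.1%. In hair follicle cells 5 rose and 5 fell, 12.5% each way, against 14.8 and 13.8% of all tested genes. In other cells 4 of 39 rose (10.3%, against 7.22% of all tested genes) and none fell. At an unadjusted p under 0.05 there were 10 higher and 3 lower, and by DESeq2 8 and 2. In other cells single members are described next. The ligand genes Wnt10a, Wnt6 and Wnt3a rose there, Wnt10a from 31.3 and 29.1 to 64.3 and 43.5 CPM (log2 fold change 0.84 ± 0.22, adjusted p = 0.0455) and Wnt6 with a log2 fold change of 1.03 ± 0.23. Lef1, the DNA-binding partner of β-catenin, rose from 29.6 and 22.2 to 84.7 and 45.3 CPM in other cells (log2 fold change 1.34 ± 0.32, adjusted p = 0.0368) and had 58.8 and 63.3 CPM in WT and 70.8 and 80.5 in KO in hair follicle cells (log2 fold change 0.44 ± 0.11, adjusted p = 0.0242). Wnt4, an epidermal ligand, had 164 and 153 CPM in WT and 201 and 117 in KO over all kept cells (log2 fold change 0.11 ± 0.24, adjusted p = 0.763). Over all kept cells the β-catenin gene Ctnnb1 had 355 and 354 CPM in WT and 374 and 397 in KO (log2 fold change 0.22 ± 0.10, adjusted p = 0.136). Gsk3b, the kinase that marks β-catenin for decay, had 143 and 129.9 CPM in WT and 124 and 121 in KO there (log2 fold change -0.05 ± 0.11, adjusted p = 0.767). Gpc3, a surface proteoglycan that binds Wnts, was 145 and 150.5 CPM in WT and 95.7 and 106 in KO over all kept cells and fell (log2 fold change -0.44 ± 0.10, adjusted p = 0.0265), as it did in hair follicle cells (log2 fold change -0.62 ± 0.10, adjusted p = 0.00724), with 70.7 and 58.1 CPM in WT and 60.2 and 60.8 in KO in other cells (adjusted p = 0.714). Without KO replicate 1 the rise of Lef1 in other cells was 0.79 and did not pass the test. Without WT replicate 2 none of the list was called in other cells, and with cells of another type left out 9 rose and 2 fell.

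Inhibitors and feedback targets of the pathway went both ways, 5 higher and 4 lower of 26 tested over all kept cells and 5 higher and 4 lower of 25 in other cells. Axin2, a direct target that feeds back on the pathway, fell from 76.8 and 61.6 to 25.6 and 25.4 CPM (log2 fold change -1.34 ± 0.14, adjusted p = 0.00354), and Myc, another target, from 20.6 and 15.1 to 5.11 and 6.59 (log2 fold change -1.51 ± 0.21, adjusted p = 0.00684). Dkkl1, a Dickkopf-like secreted protein, fell from 19.98 and 21.8 to 1.27 and 2.74 (log2 fold change -3.29 ± 0.34, adjusted p = 0.00354). Ctnnbip1, which blocks β-catenin from LEF1, had 107 and 123 CPM in WT and 122 and 141 in KO (log2 fold change 0.30 ± 0.12, adjusted p = 0.115). Wif1, a secreted Wnt inhibitor, rose from 4.01 and 4.18 to 8.29 and 13.7 (log2 fold change 1.52 ± 0.25, adjusted p = 0.00974), and Frzb, Sfrp5, Bambi and Kremen2 rose with it. For Axin2, Myc and Dkkl1 the genotypes did not overlap. In other cells 2 members fell and none rose without WT replicate 2, and without WT replicate 1 there was 1 higher and 2 lower.

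Few Hedgehog pathway genes moved, with Gas1 the 1 of 14 that rose over all kept cells, 2 lower in hair follicle cells and 2 higher in other cells, where Gas1, the gene of a cell-surface co-receptor, had 55.7 and 51.1 CPM in WT and 179 and 116 in KO (log2 fold change 1.47 ± 0.23, adjusted p = 0.0124) and Gli2 had a log2 fold change of 0.78 ± 0.17. None of the 14 was called in other cells once either WT library was left out. Genes of the hair shaft and inner root sheath split in 2 groups, with 6 higher and 6 lower of 23 in hair follicle cells. The 3 inner root sheath keratins tested, Krt71, Krt25 and Krt73, rose. Krt71 was 10.9 and 5.35 CPM in WT and 33.1 and 15.4 in KO in hair follicle cells (log2 fold change 1.71 ± 0.44, adjusted p = 0.0294) and Krt25 was 19.1 and 11.1 CPM in WT and 39.8 and 21.98 in KO (log2 fold change 1.17 ± 0.34, adjusted p = 0.0437). The shaft keratins Krt31, Krt32, Krt33a and Krt34 fell, while Krt33b, Krt35 and Krt86 did not pass the test. Krt34 went from 4.87 and 9.07 to 2.27 and 1.08 CPM (log2 fold change -1.92 ± 0.42, adjusted p = 0.0181) and Krt31 had a log2 fold change of -1.62 ± 0.29. The inner root sheath keratins moved in the direction of the gate genes Krt27 and Krt28 among the gated cells, and the part of the gate's make-up in them was not tested. Krtap17-1, a keratin-associated protein of the hair shaft, was 143 and 173 CPM in WT and 7.88 and 5.77 in KO in hair follicle cells (log2 fold change -4.40 ± 0.19, adjusted p = 0.000875), 21.1-fold lower, with 24.5 and 22.1 CPM in WT and 1.01 and 1.57 in KO in other cells. Of 20 outer root sheath, bulge and upper follicle genes 7 fell and 3 rose in hair follicle cells. Krt79, a keratin of the upper follicle, was 762 and 887 CPM in WT and 299.5 and 341 in KO (log2 fold change -1.23 ± 0.12, adjusted p = 0.00277), and Gata6, a factor of the upper follicle and its duct, was 6.87 and 7.72 CPM in WT and 1.54 and 1.39 in KO (log2 fold change -2.18 ± 0.19, adjusted p = 0.0024). Barx2, a homeobox gene of the follicle, was 277 and 201 CPM in WT and 139 and 106 in KO (log2 fold change -0.83 ± 0.19, adjusted p = 0.0206). Without KO replicate 2 there were 4 lower in hair follicle cells.

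Several of the largest changes lay outside the lists. Tppp3, a tubulin-binding protein, was 134 and 125 CPM in WT and 6.63 and 11.1 in KO in other cells (log2 fold change -3.88 ± 0.25, adjusted p = 0.00214). Ly6g6c, a small GPI-anchored protein, was 522 and 686 CPM in WT and 25.1 and 67.3 in KO (log2 fold change -3.72 ± 0.44, adjusted p = 0.00732), Rarres1, a retinoid-responsive gene, was 45.2 and 89.2 CPM in WT and 3.29 and 1.26 in KO (log2 fold change -4.82 ± 0.51, adjusted p = 0.0058) and Fam25c was 522 and 486 CPM in WT and 28.1 and 76.6 in KO (log2 fold change -3.28 ± 0.43, adjusted p = 0.00862). Tsc22d3, a glucocorticoid-induced gene, fell from 89.7 and 141 to 12.8 and 12.5 CPM in hair follicle cells (log2 fold change -3.06 ± 0.22, adjusted p = 0.00165). Each of these had KO values below WT values without overlap. The prohormone convertase Pcsk2 was 78.3 and 48.3 CPM in WT and 9.69 and 5.90 in KO and endothelin 1 (Edn1) 146 and 80.99 CPM in WT and 19.9 and 27.3 in KO in hair follicle cells, with log2 fold changes of -2.89 ± 0.31 and -2.14 ± 0.29.

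Among the increases, Odc1, the rate-limiting enzyme of polyamine synthesis, was 39.1 and 54.2 CPM in WT and 191 and 310.3 in KO in hair follicle cells (log2 fold change 2.56 ± 0.26, adjusted p = 0.00281) and 38.4 and 44.8 CPM in WT and 163 and 252 in KO over all kept cells (log2 fold change 2.42 ± 0.21, adjusted p = 0.00261). The glycolytic genes Ldha and Tpi1 rose together, Ldha from 165 and 176 to 577 and 608 CPM in hair follicle cells (log2 fold change 1.93 ± 0.10, adjusted p = 0.000972) and Tpi1 from 151 and 175 to 519 and 499 (log2 fold change 1.78 ± 0.11, adjusted p = 0.00115). Gadd45b, a stress-response gene, was 19.4 and 21.98 CPM in WT and 52.7 and 71.8 in KO (log2 fold change 1.72 ± 0.17, adjusted p = 0.00277). Both KO libraries were above both WT libraries for all 4. Tpm2, a tropomyosin, was 18.4 and 13.2 CPM in WT and 39.7 and 90.6 in KO in other cells (log2 fold change 2.04 ± 0.38, adjusted p = 0.0197) and Xcl1, a chemokine of T cells, was 23.3 and 10.7 CPM in WT and 36.5 and 83.7 in KO (log2 fold change 1.81 ± 0.47, adjusted p = 0.0461), which did not pass the test without cells of another type (1.66). Gm8730, a near copy of the ribosomal protein gene Rplp0, was 218 and 280.1 CPM in WT and 1585 and 1379 in KO over all kept cells (log2 fold change 2.68 ± 0.16, adjusted p = 0.00131), while Rplp0 itself had 4139 and 5193 CPM in WT and 3662 and 3760.1 in KO, so that reads of the pair could be split between them. At E16.5 Gm8730 had 3918 and 474 CPM in WT and 1934 and 429 in KO, with replicates further apart than genotypes. Gm10093, a predicted gene, differed between the WT libraries and was 14.2 and 1.04 CPM in WT and 51.03 and 67.9 in KO in hair follicle cells (log2 fold change 3.10 ± 0.88, adjusted p = 0.0416). Gt(ROSA)26Sor, the transcript of a locus used for transgenes, was 31.6 and 25.6 CPM in WT and 112 and 71.02 in KO (log2 fold change 1.81 ± 0.23, adjusted p = 0.00405).

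Merkel and sebaceous genes were lower. Of 6 Merkel cell genes 3 fell over all kept cells (median -1.997). Atoh1, the factor that specifies these touch-sensing cells, was 2.15 and 3.69 CPM in WT and 0.350 and 0.155 in KO (log2 fold change -3.40 ± 0.47, adjusted p = 0.0066), Krt20 was 3.98 and 6.08 CPM in WT and 0.701 and 0.343 in KO (log2 fold change -3.15 ± 0.41, adjusted p = 0.0058) and Krt8 was 13.3 and 18.8 CPM in WT and 3.23 and 1.83 in KO (log2 fold change -2.56 ± 0.31, adjusted p = 0.00536). The same 3 genes fell in other cells. Of 6 sebocyte genes 5 fell, among them Scd3, a desaturase of sebaceous glands, from 12.2 and 15.6 to 2.14 and 0.787 CPM (log2 fold change -3.13 ± 0.44, adjusted p = 0.00669) and Cidea, a lipid droplet protein, with a log2 fold change of -1.90 ± 0.20. The summed level of the Merkel list was 27.5 and 40.7 CPM in WT and 10.2 and 6.98 in KO, and that of the sebocyte list 187 and 175 against 106 and 104. Without KO replicate 2 there were 2 sebocyte genes lower over all kept cells.

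Few markers of cells that are not keratinocytes passed the test. No melanocyte, leukocyte or muscle marker changed in any of the 3 sums by the edgeR test. Over all kept cells 1 melanocyte marker was lower, 1 leukocyte marker higher, and 1 muscle marker higher and 1 lower at an unadjusted p under 0.05, and DESeq2 called 1 melanocyte marker lower and 1 leukocyte marker higher. In other cells 2 leukocyte markers were higher by DESeq2 and at an unadjusted p under 0.05, and in hair follicle cells 1 muscle marker was higher at an unadjusted p under 0.05 and none of these markers by DESeq2. Without WT replicate 2 edgeR called 3 leukocyte markers higher over all kept cells, 2 in hair follicle cells and 1 in other cells, and without KO replicate 1 it called 1, 2 and 2 melanocyte markers higher. Without cells of another type 1 melanocyte marker was lower in each of the 3 sums, as was 1 in other cells without KO replicate 2 and 1 in hair follicle cells without WT replicate 2. The summed melanocyte level ranged from 1977 to 2144 CPM in WT and from 1213 to 1864 in KO, the leukocyte level from 381 to 589 and from 535 to 546, and the muscle level from 11.1 to 13.3 and from 13.7 to 15.1. Of 6 fibroblast markers 2 rose over all kept cells, Col3a1 (log2 fold change 1.53 ± 0.39, adjusted p = 0.0338) and Lum (log2 fold change 1.29 ± 0.32, adjusted p = 0.0327), with a summed level of 17.6 to 20.7 in WT and 18.2 to 29.0 in KO, and neither was called without KO replicate 1 or either WT library. Cells with fibroblast markers numbered 21 and 7 in WT and 70 and 47 in KO, or 0.310 and 0.106% against 0.764 and 0.645% of kept cells. Both KO libraries thus held more of them than both WT libraries. Of the 4 endothelial markers tested Egfl7 alone rose (log2 fold change 1.36 ± 0.14, adjusted p = 0.00335), and their median was 0.03. The summed endothelial level was 8.86 to 9.45 CPM in WT and 18.5 to 19.8 in KO. In hair follicle cells it was 10.2 and 10.7 in WT and 22.0 and 21.8 in KO. Cells with endothelial markers numbered 0 and 1 in WT and 1 and 0 in KO. The source of the rise was not tested. No blood marker was called over all kept cells by edgeR, by DESeq2 or at an unadjusted p under 0.05, but WT replicate 1 alone held 37.1 CPM against 0.980 in WT replicate 2 and 6.81 and 9.60 in KO, and 4 rose in hair follicle cells. Over all kept cells 3 rose without WT replicate 1 and 4 fell without WT replicate 2. The part of these cells in the gene lists was not tested beyond leaving out cells with markers of another type. Interferon response genes gave 1 higher and 4 lower of 18 (median -0.54), and 2 higher and 1 lower without cells of another type. At most 1 of them was lower without KO replicate 1, KO replicate 2 or WT replicate 2. Genes that dissociation is known to induce rose in 10 of 16 cases and fell in 1 over all kept cells (median 0.54). Fosb, an immediate early gene, went from 15.7 and 26.3 to 68.98 and 91.7 CPM (log2 fold change 2.04 ± 0.26, adjusted p = 0.00563), Jun changed by 0.99 ± 0.11 and the heat shock gene Hspa1a by 1.63 ± 0.30 on the log2 scale, while Hspb1 fell (log2 fold change -0.82 ± 0.14, adjusted p = 0.0106). The mitochondrial share of UMIs differed between the genotypes as well, as given above, and the part of tissue handling in the other results was not tested. Without KO replicate 2 there were 4 such genes higher.

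Free RNA in the droplets sets a limit on what the hair follicle cells can show. It was read from cells with leukocyte markers outside the gate and without markers of other types (428 and 528 cells in WT, 612 and 563 in KO, with median depths of 5773.5 to 7899.5 UMIs), which should make no keratinocyte product. Krt10 was 1304 and 1351 CPM in WT and 359 and 324 in KO in leukocyte cells and 980.0 and 1044 CPM in WT and 318 and 336 in KO in hair follicle cells, against 7929 and 9460.5 and 1956 and 2538 in other cells. With every cell thinned down to 3000 UMIs, Krt10 was seen in 50.1 and 47.2% of hair follicle cells in WT and in 26.5 and 28.1% in KO, and in 48.6 and 42.4% and 23.2 and 27.0% of leukocyte cells (before thinning 82.5, 85.1, 66.3 and 70.0% of hair follicle and 68.9, 79.0, 44.8 and 46.0% of leukocyte cells in the same order). The level in hair follicle cells was thus at that of the background. Flg lay near it, with 109 and 48.8 CPM in WT and 2.87 and 4.75 in KO in leukocyte cells and 96.3 and 90.4 CPM in WT and 3.51 and 2.87 in KO in hair follicle cells, below the leukocyte value in WT replicate 1 and above it in WT replicate 2. Lor was low in both, 14.9 and 21.7 CPM in WT and 1.23 and 10.2 in KO in leukocyte cells and 31.1 and 30.5 CPM in WT and 5.27 and 4.55 in KO in hair follicle cells, above the background in WT and on either side of it in KO. The decrease of Krt10 in the hair follicle sum cannot be told apart from a change of the background.

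Other decreases lay above it. Krtap17-1 was at 9.42 and 7.10 CPM in WT leukocyte cells, far below its 143 and 173 CPM in WT hair follicle cells. Axin2 was 13.8 and 10.97 CPM in WT and 6.14 and 5.0 in KO in leukocyte cells and 82.7 and 70.5 CPM in WT and 27.7 and 26.4 in KO in hair follicle cells. Dst, with 105 and 89.1 CPM in WT and 64.5 and 51.0 in KO in leukocyte cells and 519.9 and 525 CPM in WT and 181 and 151 in KO in hair follicle cells, fell in both sets of epithelial cells (log2 fold change -1.52 ± 0.12, adjusted p = 0.00189 in hair follicle cells). For these 3 genes the hair follicle cells of each library stood above its leukocyte cells.

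The calls overlapped between the 2 sets of cells. Of 13850 genes tested in both, 771 were higher in both, which is 35.7% of the calls higher in hair follicle cells and 74.5% of those in other cells, and 809 were lower in both, 40.1% and 66.9% of the respective calls. As both sets come from the same libraries and share free RNA, these shares carry no test. Restricting to genes at 3 or more times the leukocyte level in every library, chosen after the data had been seen, left 46 genes higher and 82 lower in both.

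Which changes were specific to a set of cells was tested as the difference of the KO effects, hair follicle minus other cells, in 1 fit with the library as a block. The effect differed for 1233 of 15221 genes, with 830 differences above 0 (5.45%) and 403 below 0 (2.65%). With RLE scaling there were 773 above and 601 below 0, without WT replicate 1 there were 557 and 621, and without WT replicate 2 there were 239 and 80, so the excess above 0 rests on WT replicate 1. Of the 809 genes lower in both sets 119 differed, 104 of them with the larger fall in other cells. Of the 771 higher in both 69 differed, 33 with the larger rise in other cells and 36 in hair follicle cells. Barrier lipid genes had 24 of 45 differences above 0, envelope genes 8 of 28 and junction genes 9 of 38, and none, none and 1 below 0. In other cells the summed lipid level was 3846 and 3993 CPM in WT and 3129 and 5833 in KO, with the KO libraries on either side of WT. In hair follicle cells it was 1364 and 1391 CPM in WT and 1690 and 1884 in KO. In leukocyte cells it was 1049 and 1068 in WT and 987 and 1075 in KO. For envelope genes the hair follicle sums were 1594 and 1594 in WT and 1007 and 809 in KO. The leukocyte sums of these genes were 963 and 974 in WT and 472 and 327 in KO. For junction genes the hair follicle sums were 3784 and 3737 in WT, against 1187 and 1119 in WT leukocyte cells. The part of free RNA in these differences was not tested. Of the 24 lipid genes 17 fell in other cells, while 8 fell in hair follicle cells and 6 rose there, among the latter Fdps and Hmgcs1. Of the 8 envelope genes 5 fell in other cells and 5 in hair follicle cells. Of the 9 junction genes 9 fell in other cells and 5 in hair follicle cells. A fall was called in other cells alone, with a called difference, for 178 genes, and in hair follicle cells alone for 127. A rise was called in other cells alone for 94 and in hair follicle cells alone for 304.

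**Figure D3:**
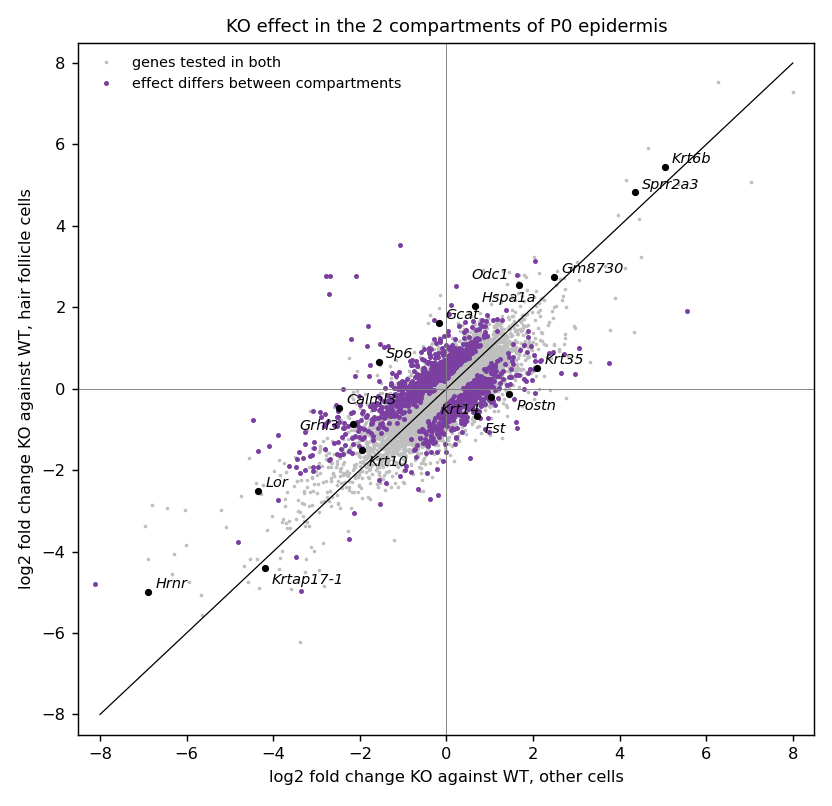
KO effect on each gene in other cells (horizontal axis, log2 fold change) against hair follicle cells (vertical axis, log2 fold change). Purple points are the genes whose effects differed by the test, with named genes labelled. Fst lies on opposite sides of 0 on the 2 axes (-0.68 in hair follicle cells and 0.71 in other cells).

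Of 16 basal keratin and hemidesmosome genes 4 had a difference below 0. Krt14 rose in other cells as given above and was 2077 and 2121 CPM in WT and 1762 and 1546 in KO in hair follicle cells (log2 fold change -0.21 ± 0.10, adjusted p = 0.143), a difference of -1.22 ± 0.10, adjusted p = 0.00324. Krt5 had a difference of -0.68 ± 0.15, adjusted p = 0.0379, with 2013 and 1469.9 CPM in WT and 1561 and 1213 in KO in hair follicle cells. Outside that list, Fst, the activin antagonist follistatin, fell in hair follicle cells from 175 and 244 to 109.6 and 129 CPM (log2 fold change -0.68 ± 0.17, adjusted p = 0.0276) and rose in other cells from 118 and 154 to 211 and 234 (log2 fold change 0.71 ± 0.16, adjusted p = 0.0336), and the difference was -1.38 ± 0.09, adjusted p = 0.00324. With a gate of 3 genes, a gate at 2 UMIs or a gate applied after thinning, the rise of Fst in other cells was 0.28, 0.37 and 0.15 and did not pass the test, while the difference stayed past it at -1.12, -1.20 and -1.13. Sox4, a factor of immature epithelium, had a difference of -0.68 ± 0.10, adjusted p = 0.0115. Besides Fst, another 6 genes moved in opposite directions with both calls passing, Bspry, Homer2, Spon1, Paqr5, Sp6 and Pcp4. Sp6, a factor of skin appendages, had a log2 fold change of 0.66 in hair follicle cells and -1.56 in other cells. Cell cycle genes had 13 of 97 differences below 0 and 1 above. Among genes that averaged 5 or more in log2 CPM and whose genotypes did not overlap, Postn (-1.56 ± 0.21, adjusted p = 0.00999), a matrix protein, and Krt35 (-1.56 ± 0.20, adjusted p = 0.00892), a shaft keratin, were the most negative, and Calml3 (2.07 ± 0.26, adjusted p = 0.00849), a calmodulin-like gene of differentiating keratinocytes, the most positive. Krt10 had a difference of 0.47 ± 0.09, adjusted p = 0.0273, which compares other cells with the background level in follicle cells.

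Further genes that the study names were read in other cells as well. Dcn, the proteoglycan decorin, rose from 193 and 209 to 453 and 329 CPM (log2 fold change 0.97 ± 0.19, adjusted p = 0.0228), and Sox4 from 217 and 198 to 309 and 288 (log2 fold change 0.53 ± 0.13, adjusted p = 0.045), both with KO above WT. The rise of Sox4 did not pass the test with any other gate (0.22 to 0.35) or without any 1 of the 4 libraries (0.46 to 0.61). Dcn is also made by fibroblasts, whose markers are given above. The imprinted transcripts H19 and Igf2 had 557 and 349.6 CPM in WT and 773 and 477 in KO for H19 (adjusted p = 0.315) and 22.4 and 18.3 CPM in WT and 35.3 and 25.3 in KO for Igf2 (adjusted p = 0.115), and neither passed the test. Ly6a, the surface protein Sca-1 of upper follicle and basal cells, rose from 11.2 and 9.08 to 21.4 and 43.5 CPM (log2 fold change 1.67 ± 0.32, adjusted p = 0.0221). Cells with leukocyte markers outside the gate held Ly6a at 34.4 and 41.3 CPM in WT and 35.6 and 42.7 in KO, and the summed leukocyte level in other cells was 866 and 1275 CPM in WT and 1276 and 1692 in KO, whose part in the rise of Ly6a was not tested. Dcn, Sox4 and Ly6a were all higher in both KO libraries than in both WT libraries.

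**Figure D4:**
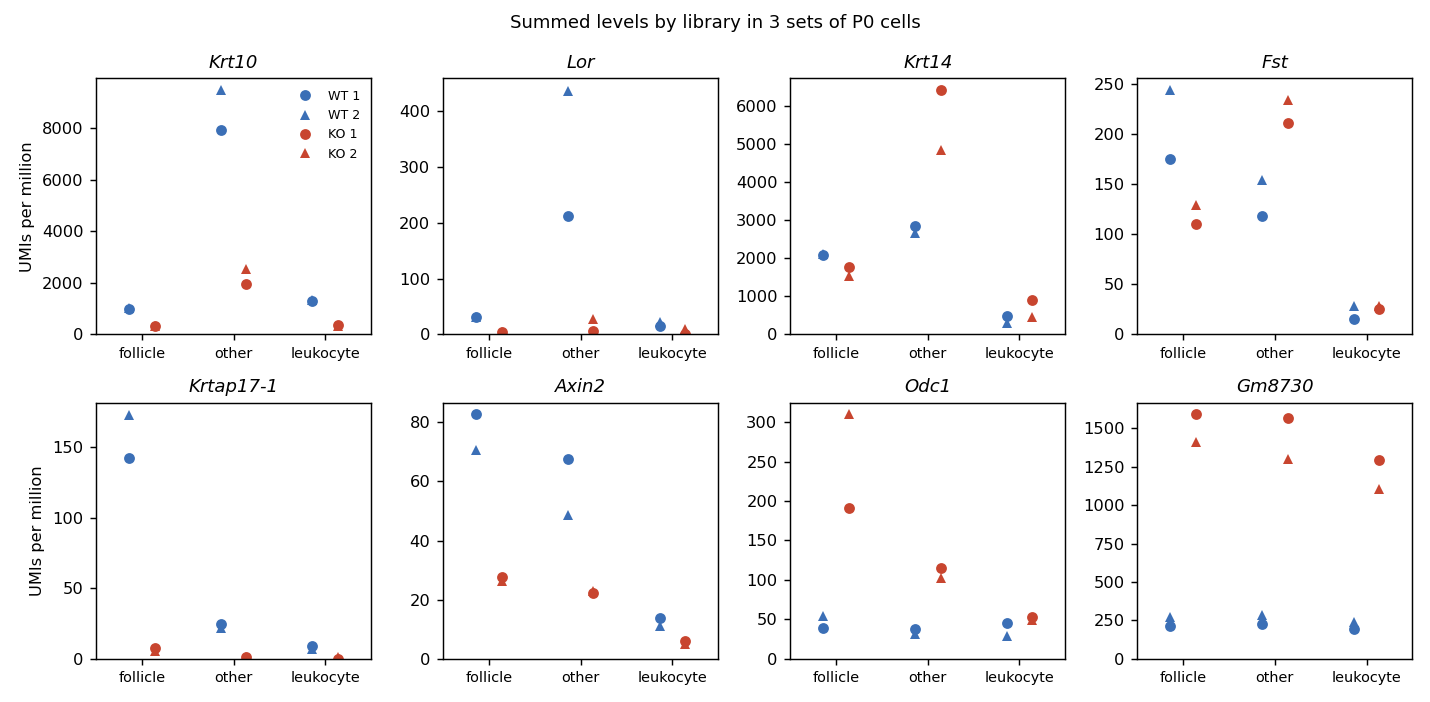
Level in CPM (linear axis from 0) of Krt10, Lor, Krt14, Fst, Krtap17-1, Axin2, Odc1 and Gm8730 in hair follicle cells, other cells and leukocyte-marker cells of each library, WT in blue and KO in red. The Krt10 points of hair follicle cells sit near the leukocyte points and far below those of other cells, whereas the WT points of Krtap17-1 stand far above both.

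At E16.5 the same genotypes had been measured in whole back skin, after a shorter Dispase digestion by the methods. Age, tissue and dissociation thus cannot be told apart in what follows. The KO effect at P0 over all kept cells differed from that at E16.5 for 2924 of 16827 genes, 1513 above 0 (8.99%) and 1411 below (8.39%). At E16.5 itself 128 of 17187 tested genes were higher (0.745%) and 187 lower (1.09%) in KO. Of 32 envelope genes tested there 16 fell (median -5.63), and of 23 cornification enzymes 5 fell. Lor had 735 and 1812 CPM in WT and 50.4 and 4.18 in KO at that age (log2 fold change -5.57 ± 1.07, adjusted p = 0.0352). The envelope gene Hrnr had a log2 fold change of -5.26 ± 0.92 and the enzyme gene Klk7 of -3.98 ± 0.78, side by side with -6.51 ± 0.36 and -2.77 ± 0.22 at P0. For Krt10 it was -2.15 ± 0.54 (adjusted p = 0.0794) at E16.5, with values of 2264 and 5117 CPM in WT and 1221 and 468 in KO. Krt6b was higher in KO at E16.5 too (6.23 ± 1.29, adjusted p = 0.0468). Between the ages 2 of 32 envelope genes differed above 0 and 1, Flg, below 0, with a difference of -3.12 ± 0.82, adjusted p = 0.0405.

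Other genes had an effect at P0 that differed from that at E16.5. Tppp3 had a log2 fold change of 0.10 ± 0.24 at E16.5 and a difference of -3.75 ± 0.33, adjusted p = 0.00325. Odc1 had 70.8 and 72.7 CPM in WT and 66.9 and 70.98 in KO at E16.5 (log2 fold change -0.09 ± 0.18) and a difference of 2.44 ± 0.25, adjusted p = 0.0035. Myc, with 0.20 ± 0.18 at E16.5, had a difference of -1.78 ± 0.27, adjusted p = 0.00902, Axin2 of -1.01 ± 0.18, adjusted p = 0.0137 and Lef1 of 1.19 ± 0.13, adjusted p = 0.00407. Krt14 had 1679 and 2912 CPM in WT and 1192 and 813 in KO at E16.5 (log2 fold change -1.22 ± 0.44, adjusted p = 0.223) and a difference of 1.61 ± 0.42, adjusted p = 0.0393. Cell cycle genes had 56 of 97 differences above 0 and none below, interferon genes 11 of 19 below 0, and dissociation stress genes 8 of 16 above 0. The dermis and muscle of whole skin are part of the E16.5 sums, and their make-up differed between the genotypes. The summed level of the 16 basal genes was 4075 and 6401 CPM in WT and 2707 and 1976 in KO at E16.5 (median log2 fold change -0.999). That of the 8 muscle genes was 285 and 259 in WT and 557 and 1202 in KO, with 3 higher, and that of the 6 leukocyte genes 430 and 442 against 725 and 716. The part of these shifts in the falls at E16.5 and in the differences between ages was not tested. Among the differences, Acta1, the actin of skeletal muscle, had -3.54 ± 0.78, adjusted p = 0.0244, and Col6a3, a dermal collagen, 2.24 ± 0.54, adjusted p = 0.0313.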

How the data were processed

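The authors used Cell Ranger to align reads to the mm10 build and to count UMIs (version 1.3.1 in the submitters' notes, whereas the methods give a later one). They deposited raw counts of called cells on 27998 genes, without normalization. The paper lists mean reads per cell of each experiment in its supplement, and depth was read here from UMIs alone. The limits of the methods on cells were applied, which are 900 to 7700 genes at P0, 600 to 4800 at E16.5 and a mitochondrial share of no more than 10%. Doublets were not called, and leaving out the deepest 5% of cells was an alternative.

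UMIs were summed per library and set of cells and given as counts per 1000000 UMIs of that sum (CPM). They were tested with edgeR 4.0.16 in R 4.3.3 (filterByExpr, TMM, quasi-likelihood test, Benjamini-Hochberg adjusted p under 0.05). A test on simulated data came first. In it 90.91 to 100% of 2-fold changes were recovered across the 5 comparisons and 2.439 to 9.091% of calls were false. Whether these rates hold at the spread between the real libraries or for genes of a few CPM was not tested. The library is the replicate, and the 4 libraries are from different animals per the methods. The standard error is the log2 fold change divided by the square root of F. Differences between sets of cells were tested with the library as a block, those between ages as an interaction over 8 libraries, and effects at E16.5 in a fit on 12 libraries. DESeq2 1.42.0 was another tool, and tables were made with Python 3.11.15, numpy 2.4.6, pandas 2.3.3, scipy 1.17.1 and matplotlib 3.10.9. Alternatives were RLE scaling, no filter, a replicate block, a 5% mitochondrial limit, equal totals, other gates and leaving out each library or cells of another type. List counts under left-out libraries and the comparison with leukocyte levels were added after the data had been seen. The libraries of E14.5 entered only the fit on 12 libraries. Gene coordinates are from GENCODE M21 (GRCm38), matched by Ensembl identifier.

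The members and the 24 gene lists were chosen with earlier results of these data known. Named genes are, for each sum, the 10 with the largest log2 fold change each way among changed genes that averaged 5 or more in log2 CPM and whose genotypes did not overlap (5 each way for the differences), the genes the study names, and for each list the 4 most abundant members and up to 4 changed members with the largest fold change. Other list members named in the text were chosen after their values had been seen. The lists cover Grainyhead genes and targets, envelope proteins, small proline-rich and stress genes, cornification enzymes, barrier lipids, basal and suprabasal keratins, junctions, Wnt effectors, Wnt inhibitors, Hedgehog, hair shaft and inner root sheath, outer root sheath and upper follicle, cell cycle, interferon, dissociation stress, and markers of melanocytes, leukocytes, fibroblasts, muscle, blood, endothelium, Merkel cells and sebocytes. A list of keratinocyte markers served only to check the tissue. Some genes that the rule names are not reported here.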

Additional observations from a re-analysis of the deposited data

Results flagged for a closer look

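The KO effect differed between hair follicle cells and other cells for 1233 genes, by the test of the difference itself in edgeR. Among the 5 genes with the largest difference each way by the rule for named genes and the genes the study names, the log2 difference of the effects, hair follicle minus other cells, was above 0 for Calml3 (2.07), Gcat (1.83), Lypd3 (1.62), 1110008P14Rik (1.52), Hspa1a (1.44), Grhl3 (1.30), Ctnnbip1 (1.12) and Krt10 (0.47). It was below 0 for Krt35 (-1.56), Postn (-1.56), Fst (-1.38), Gas1 (-1.31), Cald1 (-1.27), Krt14 (-1.22), Krt5 (-0.68) and Sox4 (-0.68).

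The KO effect also differed between P0 epidermis and E16.5 whole skin for 2924 genes, by the test of the interaction. For genes chosen in the same way, the log2 difference, P0 minus E16.5, was above 0 for Acta2 (3.34), Odc1 (2.44), Col26a1 (2.33), Col6a3 (2.24), Crabp1 (2.20), Krt14 (1.61), Lef1 (1.19) and Ctnnbip1 (0.70). It was below 0 for Angptl4 (-4.91), Tppp3 (-3.75), Acta1 (-3.54), Flg (-3.12), Myc (-1.78), Axin2 (-1.01) and Gpc3 (-0.60). The muscle actin Acta1 and the mural cell actin Acta2 lie on opposite sides of 0, and tissue, age and dissociation cannot be told apart here.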

How the results depend on the processing

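Over all kept cells the 3899 changed genes became 5857 in a fit on all 12 libraries and 980 to 3057 when 1 library was left out. In hair follicle cells the 4177 became 1757 to 4361 without 1 library. In other cells the 2244 became 3624 without a filter on low counts, 3640.0 without cells of another type, 3736 with the gate applied after thinning and 652 to 1511 without 1 library. The 1233 differences between hair follicle and other cells became 319 to 1965 without 1 library and 0 without the library as a block, where 1586 had an unadjusted p under 0.05 in the edgeR test. With RLE scaling they were 1374, 773 above and 601 below 0, against 830 and 403. The 2924 differences between ages became 1621 to 3199 without 1 library. DESeq2 called 4471 genes over all kept cells, 4352 in hair follicle cells, 2842 in other cells and 3513 differences between ages. Fits that leave out 1 library hold fewer samples, and a lone sample is there assumed to vary like the other group. The hair follicle share was 2.21 percentage points higher in KO than in WT, -3.42 points apart when the gate was applied to cells thinned to 3000 UMIs, and -1.45 to 5.87 points apart without 1 library.

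The replicate numbers are shared by the genotypes. Deviations of same-numbered libraries had correlations of 0.0238 over all kept cells, -0.0302 in hair follicle cells and 0.104 in other cells. These were weak, so the numbers are not read as pairs, although a small shared part in other cells is not excluded. With the replicate block there were 4228 changed genes over all kept cells, 4140.0 in hair follicle cells, 3682 in other cells and 1691 differences between ages.

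Of 498 called results of named genes, 346 were called under all alternatives that kept all libraries, 251 under all alternatives run and 3 changed sign under an alternative, namely Ifit1 over all kept cells and the differences of Hbb-bs and Spink5 between the sets of cells. The other changes of sign are of results that were not called, mostly of blood genes. Without cells of another type the log2 fold changes of Hba-a1, Hba-a2, Hbb-bs and Hbb-bt over all kept cells turned to 1.79, 2.57, 2.85 and 3.06, and those of Hba-a2, Hbb-bs and Hbb-bt in other cells to 2.72, 2.94 and 3.17. Without WT replicate 1, which held most of the blood RNA, Hba-a2, Hbb-bs and Hbb-bt turned to 3.33, 3.67 and 3.72 over all kept cells and Hbb-bs to 3.80 in other cells, with a difference between the sets of -0.29, against -2.48, -1.78 and -2.62 over all kept cells, -3.08 for Hbb-bs in other cells and 5.35 for its difference without WT replicate 2. Bst2 was 0.74 over all kept cells without WT replicate 2 and -0.66 without WT replicate 1, Ifit1 to 0.40 without cells of another type and H19 to 0.59 in hair follicle cells without the deepest 5% of cells. The difference of Spink5 between the sets turned to -0.34 with a gate at 2 UMIs and to -0.45 with the gate applied after thinning. The cause was not tested. Depth limits genes of a few CPM most, and with 2 libraries per genotype no exact permutation test could pass the threshold.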
